A study of Bos taurus with 16 samples.

Results

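The 6 microRNAs (miRNAs) followed here are known from blood vessels. Corpora lutea of pregnant cattle were the tissue measured, and the 6 were miR-126-3p, miR-10b-5p, miR-130a-3p, miR-221-3p, miR-222-3p and miR-296-5p. They were chosen by name, as miRNAs described in endothelial cells and in angiogenesis, and are 6 of the 204 miRNA probes measured. All 6 were measured in all 16 samples. MicroRNAs are short RNAs that pair with messenger RNAs and lower their stability or translation. The corpus luteum forms from the ovulated follicle and secretes progesterone. It is one of the most vascular tissues of the adult body, and its capillary endothelium is among its most abundant cell types. In early pregnancy the gland is kept instead of regressing.

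Corpora lutea came from cattle bred naturally and then by artificial insemination, and found to be pregnant, at 14, 17, 20 or 23 days after breeding, with 4 samples a day. All 4 groups were pregnant, so the data hold no comparison with non-pregnant cattle, and neither breed nor age is given in the sources used here. Total RNA was counted with NanoString, which hybridises colour-coded probes to RNA and counts them without amplification. The samples were run in 2 NanoString runs, and each run held 2 samples of every day. Samples are named here by day and replicate number, of which 1 and 2 were in run 1 and 3 and 4 in run 2.

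The values are the authors' normalized counts. Their total over the 204 probes ran from 175197 to 331164 per sample in run 1 and from 373847 to 536516 in run 2. How the counts were normalized is not given in the sources used here, so counting error per value is unknown. The probes carry human names, and 38 of the 204 have no bovine gene of the same name or number in the RefSeq gene table. The median of these 38 probes was used as a background level for each sample. It was 124 to 258 in run 1 and 40.4 to 88.8 in run 2. Whether these probes carry only background was not tested, and 1 of them, the probe for miR-4454 and miR-7975, averaged 14291 normalized counts. Day 14 replicate 1 stood apart: it had the lowest total of all samples, and its background level of 258 was above the median of its probes with a bovine gene of the same name, 177.

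All 6 miRNAs have a bovine gene of the same name. MIR126 lies within EGFL7, which encodes a protein secreted by endothelial cells, and MIR10B lies within HOXD4 in the HOXD cluster. MIR221 and MIR222 are neighbours within 1 annotated long non-coding RNA, LOC132344329. MIR296 lies within another long non-coding RNA, LOC107133071. MIR130A lies in no other annotated gene. In mouse and zebrafish miR-126 supports growth factor signalling in endothelium by repressing SPRED1, an inhibitor of that signalling. In human endothelial cells miR-130a represses the anti-angiogenic homeobox genes GAX and HOXA5, miR-221 and miR-222 repress the receptor KIT, and miR-296 represses HGS, which sorts growth factor receptors for degradation. In zebrafish miR-10 takes part in the sprouting of vessels.

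The 6 miRNAs covered a wide range of levels. Over all 16 samples miR-126-3p averaged 14686 ± 8100 normalized counts (SD, n = 16), rank 4 of the 204 probes by mean, and made up 2.21% to 6.83% of the total in each sample. Next in order were miR-10b-5p at 1328 ± 593 and miR-130a-3p at 1032 ± 437, at ranks 38 and 45. miR-221-3p averaged 361 ± 155 and miR-222-3p 161 ± 82.6, at ranks 78 and 115. miR-296-5p was the lowest at 80.0 ± 27.1, rank 152. A probe's brightness differs between probes for the same amount of RNA, so this order is one of signal, and miR-10b-5p and miR-130a-3p, the closest neighbours in it, lay within 1 SD of each other.

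Against the background level, the 3 brightest of the 6 were above it in all 16 samples. miR-221-3p was above it in 7 of 8 samples of run 1 and in 8 of 8 of run 2. miR-222-3p and miR-296-5p were above it in 0 of 8 samples of run 1 and in 8 of 8 of run 2, so their values in run 1 cannot be told from background by this measure.

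The endothelial miR-126-3p was the brightest of the 6 in every sample. In run 1 its normalized counts were 7633 and 8826 on day 14, 13917 and 8951 on day 17, 10472 and 8683 on day 20, and 7579 and 7318 on day 23. In run 2 they were 20517 and 29140 on day 14, 14112 and 29256 on day 17, 10065 and 29618 on day 20, and 16446 and 12438 on day 23. Both day 23 samples of run 1 were below all 6 other run 1 samples, but narrowly, at 7579 against 7633 in day 14 replicate 1. The share of all probes apart in this way was not counted. The 4 values of day 23 overlapped those of every other day. In run 2, 6 of 8 values were above every run 1 value. The 2 samples of 1 day and run differed by as much as 2.94-fold, on day 20 in run 2. With run held, miR-126-3p was lower on day 23 than on day 14 by a log2 difference of -0.46 (standard error 0.31, 95% interval -1.10 to 0.18), which did not pass the test across all probes (limma, adjusted p = 0.419). The endothelial marker list held 1 other miRNA, miR-126-5p, which was not analysed here.

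miR-10b-5p, transcribed from the HOXD cluster, had values of 635 and 850 on day 14, 1159 and 822 on day 17, 994 and 915 on day 20, and 824 and 873 on day 23 in run 1. Its run 2 values were 2045 and 2537, 1069 and 2130, 1020 and 2056, and 1577 and 1734 on the same days. The days overlapped, and 6 of the 8 run 2 values were above every run 1 value. Its day 23 minus day 14 difference was the smallest of the 6, -0.13 (standard error 0.29, 95% interval -0.73 to 0.48, limma adjusted p = 0.892).

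miR-130a-3p had values of 568 and 676 on day 14, 852 and 737 on day 17, 908 and 832 on day 20, and 584 and 618 on day 23 in run 1. In run 2 it was at 1704 and 1664, 734 and 1719, 1039 and 1768, and 1150 and 959 on these days. Its lowest day mean was on day 23 in both runs, 601 in run 1, close to 622 on day 14, and 1054 in run 2, yet day 23 overlapped every other day. The day 23 minus day 14 difference was -0.36 (standard error 0.28, 95% interval -0.95 to 0.22, limma adjusted p = 0.514).

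The clustered pair, miR-221-3p and miR-222-3p, was of lower signal. miR-221-3p was at 197 and 215 on day 14, 307 and 452 on day 17, 313 and 228 on day 20, and 225 and 188 on day 23 in run 1. In run 2 it was at 640 and 694, 414 and 397, 518 and 343, and 410 and 239 on these days. Day 14 was the highest day in run 2 and tied with day 23 as the lowest in run 1, at means of 206 on both days. Its day 23 minus day 14 difference of -0.55 was the most negative of the 6 (standard error 0.30, 95% interval -1.18 to 0.09, limma adjusted p = 0.310).

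miR-222-3p was at 61.6 and 49.6 on day 14, 99.2 and 87.7 on day 17, 111 and 137 on day 20, and 89.0 and 108 on day 23 in run 1. In run 2 it was at 325 and 258, 156 and 157, 237 and 252, and 204 and 248 on these days. Day 14 held its lowest values in run 1 and its highest in run 2. With run held, day 23 minus day 14 was 0.23 (standard error 0.30, 95% interval -0.39 to 0.85, limma adjusted p = 0.770).

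miR-296-5p was at 80.1 and 96.3 on day 14, 84.1 and 74.4 on day 17, 72.2 and 61.7 on day 20, and 76.0 and 79.6 on day 23 in run 1. In run 2 it was at 62.9 and 47.1, 141 and 59.98, 63.5 and 65.3, and 70.2 and 146 on these days. Only 2 run 2 values, 141 on day 17 and 146 on day 23, were above every run 1 value, and the other 6 lay within or below the run 1 range. Its day 23 minus day 14 difference was 0.35 (standard error 0.31, 95% interval -0.29 to 1.00, limma adjusted p = 0.559).

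**Figure D1:**
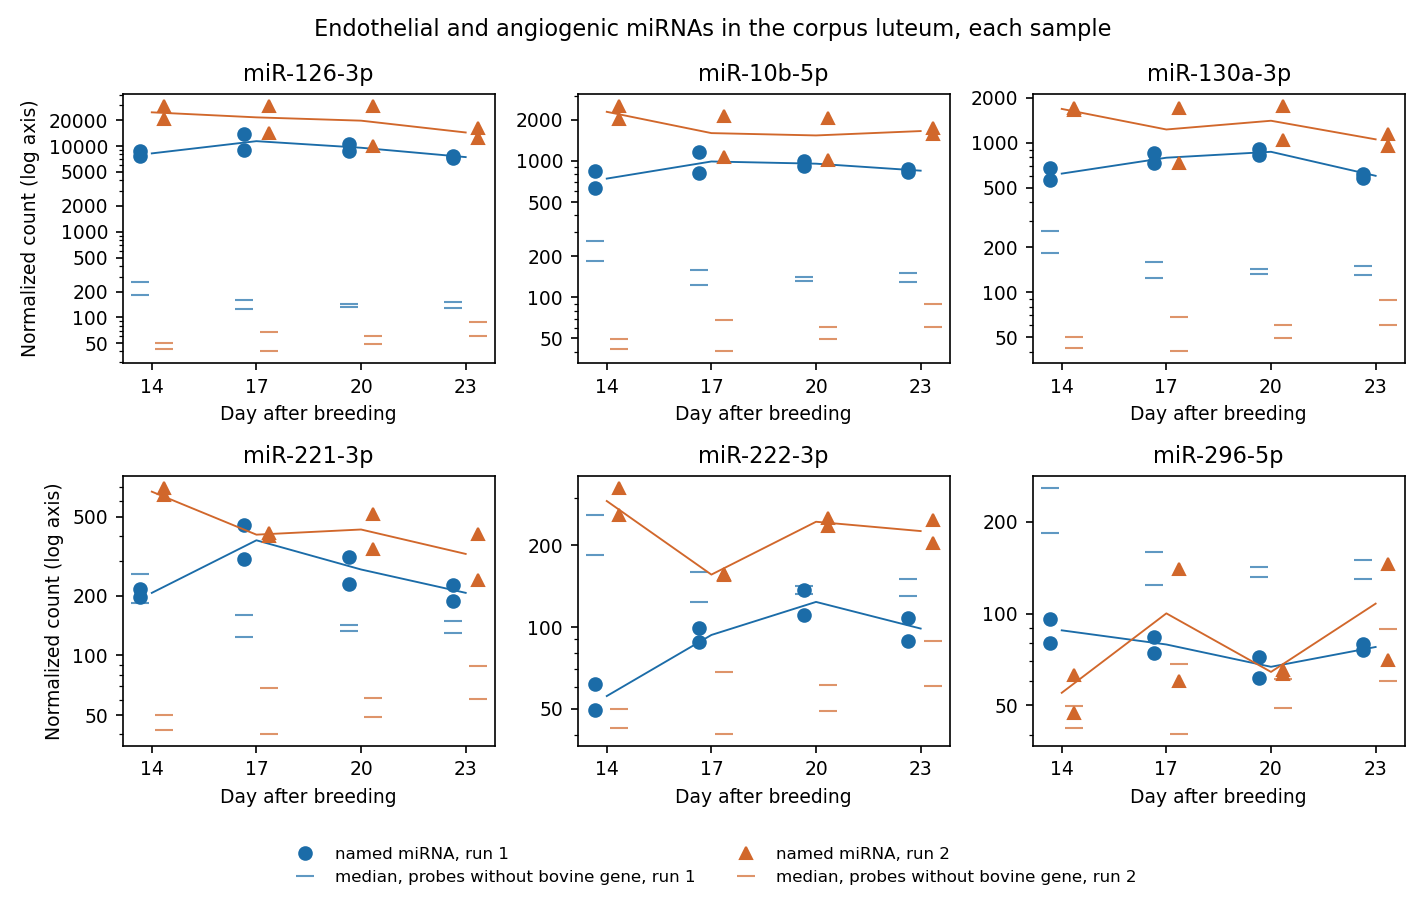
Normalized counts of the 6 miRNAs (log axis, a scale of its own in each panel) against day after breeding, with a circle for each run 1 sample, a triangle for each run 2 sample and lines through the 2-sample mean of each day and run. Short dashes mark the median of the 38 probes without a bovine gene in the same sample; miR-222-3p and miR-296-5p lie below the dashes of their own sample in all 8 samples of run 1.

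No change over days passed the test for any of the 6 miRNAs. The 4 days were compared with one linear model per probe on log2(normalized count + 1), with run as a covariate and p-values adjusted over all 204 probes by the Benjamini-Hochberg method (called at adjusted p under 0.05). For the 4 days together 0 of 6 were called by limma (adjusted p 0.664 to 0.991), beside 0% of all probes, and 0 of 6 had an unadjusted p under 0.05. In the 6 pairs of days 0 of 6 were called in each pair and none had an unadjusted p under 0.05. Among all probes the calls were 0% in 5 of these pairs and 0.490% for day 23 against day 14, which is 1 probe, miR-432-5p. On none of the 6 pairs of days did all 4 values of one day lie above all 4 of the other, for any of the 6 miRNAs. Over the 6 pairs of all 204 probes, 0.980% were apart in this way. In bulk tissue, fewer cells of a type and less of an miRNA per cell cannot be told apart.

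Read across the list, 4 of the 6 were lower on day 23 than on day 14 and 2 were higher. The median log2 difference of the 6 was -0.25, and that of all 204 probes was 0.00. The 95% intervals leave room for changes of moderate size: that of miR-126-3p reached down to -1.10 and that of miR-296-5p up to 1.00. The residual standard deviation of miR-126-3p on the log2 scale was 0.49 and that of the other 5 was 0.39 to 0.44, against a median of 0.43 over all probes.

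A linear slope on day was also fitted. It was -0.053 log2 units per day for miR-126-3p (standard error 0.031, limma adjusted p = 0.308) and -0.062 for miR-221-3p (standard error 0.031, adjusted p = 0.219). The slopes of miR-10b-5p and miR-130a-3p were -0.014 and -0.030, and those of miR-222-3p and miR-296-5p were 0.040 and 0.023. None of the 6 slopes was called, beside 0.490% of all probes.

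For 5 of the 6 miRNAs the fitted difference between NanoString runs was larger than that between any 2 days. Run 2 was higher than run 1 by a log2 difference of 1.06 for miR-126-3p (standard error 0.22, limma adjusted p = 2.78e-04), 0.96 for miR-10b-5p, 0.85 for miR-130a-3p, 0.77 for miR-221-3p (adjusted p = 0.0031) and 1.32 for miR-222-3p (adjusted p = 4.1e-05). The difference of miR-296-5p was -0.04 (adjusted p = 0.874). These 5 calls of 6 stood beside 83.3% of all probes called in either direction and 66.2% called higher in run 2, so the share of the list is near that of the table. The median run difference of the 6 was 0.90, and that of all probes was 0.74.

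The runs did not overlap for miR-222-3p, whose lowest run 2 value (156) was above its highest run 1 value (137), as held for 13.2% of all probes. For the other 5 the runs overlapped: 7 of 8 run 2 values of miR-130a-3p, 6 of 8 of miR-126-3p and of miR-10b-5p, 3 of 8 of miR-221-3p and 2 of 8 of miR-296-5p were above every run 1 value. When each sample was scaled to the same total, the run difference of all probes had a median of -0.06, and 1 of the 6 was then called. This was miR-296-5p, lower in run 2 by a log2 difference of -0.83 (limma adjusted p = 0.0181), beside 26.5% of all probes. The background level itself was lower in run 2, with a mean of 57.5 against 160.

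**Figure D2:**
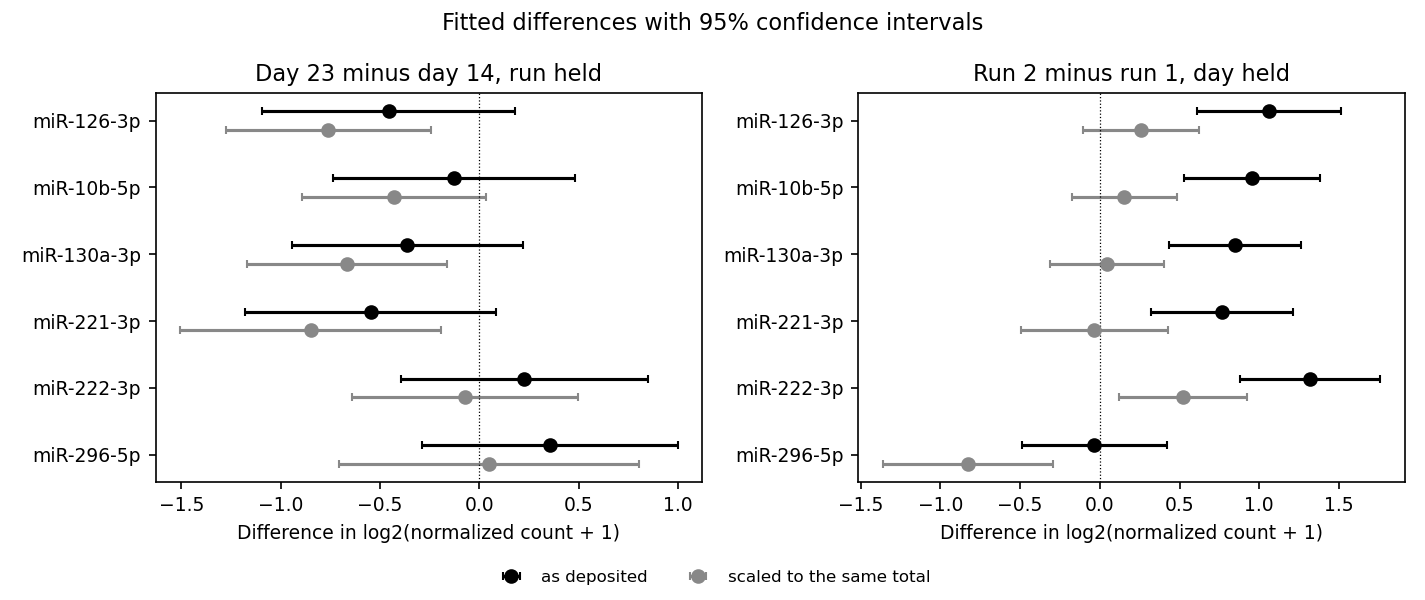
Fitted log2 differences of the 6 miRNAs with 95% confidence intervals (not adjusted for the number of probes), for day 23 minus day 14 with run held on the left and run 2 minus run 1 with day held on the right, as deposited (black) and with each sample scaled to the same total (grey). As deposited, all 6 intervals on the left include 0 and 5 of 6 on the right lie above it; scaling to the total moves every point to lower values.

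The day 23 minus day 14 differences of the 2 clustered miRNAs were not alike in the 2 runs, but the difference between runs did not pass. In run 1 the log2 difference of miR-222-3p was 0.82 and in run 2 it was -0.36. The difference between the runs was -1.18 (95% interval -2.14 to -0.23), with an unadjusted p of 0.0184 and a limma adjusted p of 0.197 over all probes. For miR-221-3p it was 0.00 in run 1 and -1.09 in run 2, a difference of -1.09 (unadjusted p = 0.0493, limma adjusted p = 0.256). For this contrast 0% of all probes were called. Over the 4 days, day and run interacted at an unadjusted p of 0.0108 for miR-222-3p and 0.0455 for miR-221-3p, but 0 of 6 were called after adjustment (lowest limma adjusted p = 0.368), beside 0% of all probes.

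The run 1 samples fitted alone gave the 1 call over days among the 6 as deposited. miR-222-3p was higher on day 20 than on day 14 by a log2 difference of 1.14 (95% interval 0.43 to 1.85, limma adjusted p = 0.0222), beside 15.2% of all probes called in that fit. In run 2 alone the same difference was -0.24 (95% interval -1.09 to 0.60). The run 1 values of miR-222-3p lay below the background level of their samples, and that level was 258 and 184 in the day 14 samples of run 1 against 124 to 160 in the other 6; its part in the result was not tested. The fit of run 1 alone rests on 2 samples a day.

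Single samples moved these differences, and none was called in any fit to both runs that left out 1 sample. For day 23 minus day 14, miR-126-3p ranged from -0.59 without day 14 replicate 1, the sample with the high background level, to -0.27 without day 14 replicate 4. miR-221-3p ranged from -0.74 to -0.36 without the same 2 samples. miR-130a-3p ranged from -0.52 without day 14 replicate 1 to -0.25 without day 14 replicate 3. Those 3 stayed below 0 in all 16 such fits. Leaving out a day 17 or day 20 sample did not change these differences. Only fits without a day 14 or day 23 sample could do so. miR-10b-5p ranged from -0.33 without day 14 replicate 1 to 0.052 without day 14 replicate 4. miR-222-3p ranged from -0.020 without day 14 replicate 2 to 0.48 without day 14 replicate 3, so both of these crossed 0. miR-296-5p ranged from 0.090 without day 23 replicate 4, its highest sample, to 0.52 without day 14 replicate 2, and was 0.16 without day 14 replicate 4.

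As a share of all normalized counts, miR-126-3p fell over the days, by a test that depends on the scale and on single samples. It made up 4.78% ± 0.66 (SD, n = 4) of the total on day 14, 4.75% ± 1.59 on day 17, 3.81% ± 1.47 on day 20 and 2.89% ± 0.84 on day 23. On day 14 the 4 shares were 4.36%, 4.14%, 5.08% and 5.56%, and on day 23 they were 2.99%, 2.21%, 4.04% and 2.32%. All 4 shares of day 23 were below all 4 of day 14, while those of days 17 and 20 overlapped both. The shares of 12.7% of all probes were apart in this direction, and on this scale the median log2 difference of all probes between these days was -0.30.

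Scaled to the same total, the slope of miR-126-3p was -0.087 log2 units per day (standard error 0.025, 95% interval -0.139 to -0.035) and was called (limma adjusted p = 0.0376), beside 9.31% of all probes. The median slope of all probes on this scale was -0.032. The slope was -0.085 in run 1 alone (limma adjusted p = 0.0316) and -0.089 in run 2 alone (adjusted p = 0.309). Day 23 minus day 14 on this scale was -0.72 in run 1 alone (limma adjusted p = 0.0184) and -0.80 in run 2 alone (adjusted p = 0.533). With both runs it was -0.76 (limma adjusted p = 0.0737). The fits of 1 run rest on 2 samples a day, and the share of all probes called in them is not given here. The slope was also called after quantile normalization, at -0.105 (limma adjusted p = 0.0388), beside 4.41% of all probes. It was not called as deposited or with each sample's median subtracted (-0.046, limma adjusted p = 0.315). No other of the 6 was called for its slope on these scales, but miR-126-3p was not alone in falling on the total scale. There miR-221-3p had a steeper slope of -0.095 (limma adjusted p = 0.0522). The slopes of miR-130a-3p and miR-10b-5p were -0.063 (limma adjusted p = 0.101) and -0.048 (adjusted p = 0.146). Those of miR-296-5p and miR-222-3p were -0.011 and 0.007.

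The call of miR-126-3p on the total scale rested on single samples. It was kept in 10 of 16 fits that left out 1 sample and was lost without day 14 replicate 1 (limma adjusted p = 0.0769) or 3 (0.0653), day 17 replicate 1 (0.0535), day 20 replicate 2 (0.0501), or day 23 replicate 2 (0.112) or 4 (0.103). The slope itself stayed between -0.098 and -0.072 in all 16. The total moved with its brightest members: let-7a-5p and let-7b-5p together took 35.9% of it on average on day 14 and 40.9% on day 23. With these left out of the total, the slope of miR-126-3p was -0.075 (limma adjusted p = 0.0656).

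**Figure D3:**
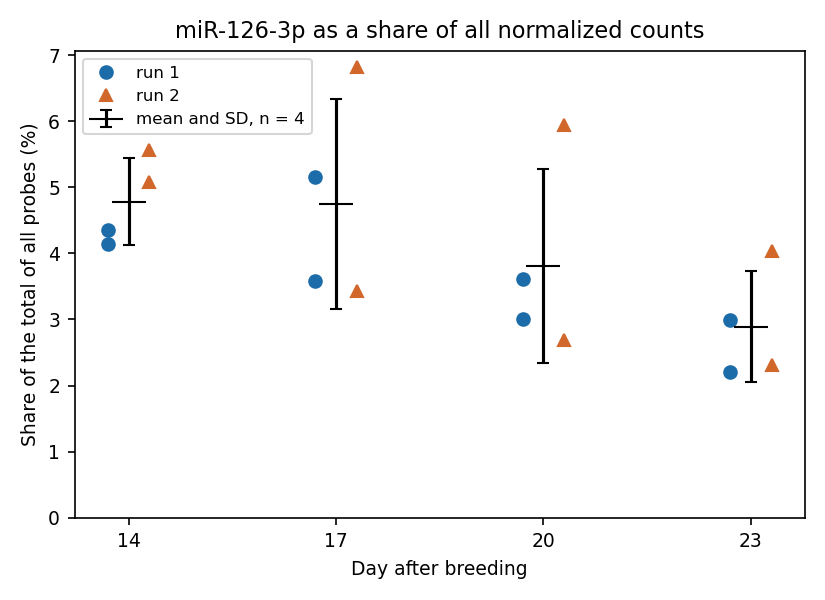
Share of the total of all 204 probes taken by miR-126-3p (percent) against day after breeding, with run 1 samples as circles, run 2 samples as triangles, and the mean and SD of each day's 4 samples as black bars. The 4 samples of day 23, at 2.21% to 4.04%, sit below the 4 of day 14, at 4.14% to 5.56%, as held for 12.7% of all probes.

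The ratio of miR-222-3p to miR-221-3p compares the 2 neighbouring genes within each sample and does not depend on the sample's scaling. In run 1 it was 0.312 and 0.230 on day 14, 0.323 and 0.194 on day 17, 0.354 and 0.599 on day 20, and 0.395 and 0.577 on day 23. In run 2 it was 0.508 and 0.372, 0.376 and 0.394, 0.457 and 0.737, and 0.499 and 1.04 on these days. The ratio averaged 0.356 ± 0.117 (SD, n = 4) on day 14, 0.322 ± 0.090 on day 17, 0.537 ± 0.167 on day 20 and 0.627 ± 0.283 on day 23, and the days overlapped. Within each run, both day 23 ratios of run 1 were above both of day 14, and in run 2 the lower day 23 ratio lay between those of day 14.

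The ratio of the deposited values was higher on day 23 than on day 14 by a mean log2 difference of 0.78, which did not pass the test. A two-sided permutation test over all 70 arrangements of the 8 samples, on log2 ratios centred within run, gave p = 0.0571. The smallest p it could give is 0.0286. These arrangements exchange samples between runs, so they do not keep the design of 2 samples of each day in each run. The log2 difference was 0.83 in run 1 and 0.73 in run 2. With samples exchanged within runs only, a test chosen after the values were seen, the 36 arrangements gave an exact permutation p of 0.111. The smallest p possible there is 0.0556, so that test could not reach a p under 0.05. All 8 run 1 values of miR-222-3p were below the background level, and so was miR-221-3p in day 14 replicate 1, at 197 against 258. By this measure miR-222-3p cannot be told from background in run 1, so the run 1 ratios may not be ratios of the 2 miRNAs. The pooled value rests on run 1 ratios for 4 of its 8 samples. In run 2 both miRNAs were above background in all samples, and the 2 samples a day there were not tested alone.

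**Figure D4:**
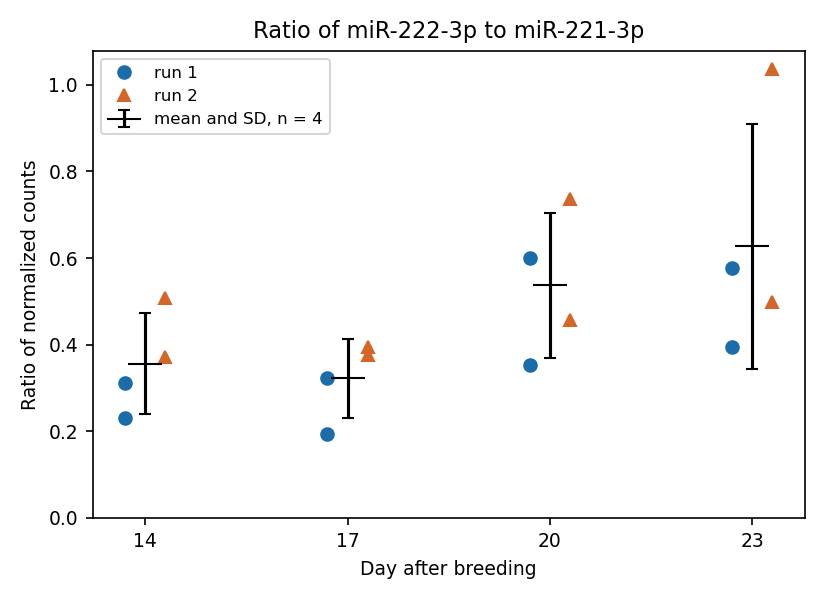
Ratio of the normalized counts of miR-222-3p and miR-221-3p against day after breeding, with run 1 samples as circles, run 2 samples as triangles, and the mean and SD of each day's 4 samples as black bars. Day 23 spans 0.395 to 1.04 and overlaps day 14, which spans 0.230 to 0.508.

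Across the samples of a run, the 3 brightest of the 6 had positive correlations, which did not pass the adjustment. Since the runs stood apart, correlations of log2(normalized count + 1) were taken within each run (n = 8 samples), for all 15 pairs in both runs, which gives 30 relations. miR-126-3p and miR-10b-5p had a Pearson r of 0.80 in run 1 and 0.85 in run 2. The r of miR-126-3p with miR-130a-3p was 0.79 and 0.84, and that of miR-10b-5p with miR-130a-3p was 0.79 and 0.84. These 6 values had exact permutation p-values of 0.0067 to 0.0234 and adjusted p-values of 0.0515 to 0.0876, so none passed, and Spearman's rho ran from 0.50 to 0.88 (adjusted exact p 0.163 to 0.432). Without the 2 samples farthest from the median, r stayed between 0.767 and 0.904.

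The neighbours miR-221-3p and miR-222-3p had an r of 0.21 in run 1 and 0.31 in run 2 (Spearman's rho 0.24 and 0.33, exact permutation p of r 0.634 and 0.464). Among the pairs with miR-296-5p, r was -0.81 with miR-222-3p in run 1 and -0.81 with miR-130a-3p in run 2, but -0.32 and -0.36 in the opposite run. Without the 2 farthest samples these 2 values of -0.81 became -0.68 and -0.41. Of the 30 relations 8 had an unadjusted exact permutation p under 0.05 and 0 passed after adjustment. With each sample's median subtracted, 9 had an unadjusted p under 0.05 and 2 passed, both in run 1: miR-126-3p with miR-130a-3p (r = 0.84, exact adjusted p = 0.0149) and miR-10b-5p with miR-130a-3p (r = 0.80, exact adjusted p = 0.0231). By Spearman's rho the first of these did not pass (0.905, exact adjusted p = 0.0685) and the second did (0.952, exact adjusted p = 0.0342). In run 2 both pairs had an exact adjusted p of 0.111 for r on this scale.

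**Figure D5:**
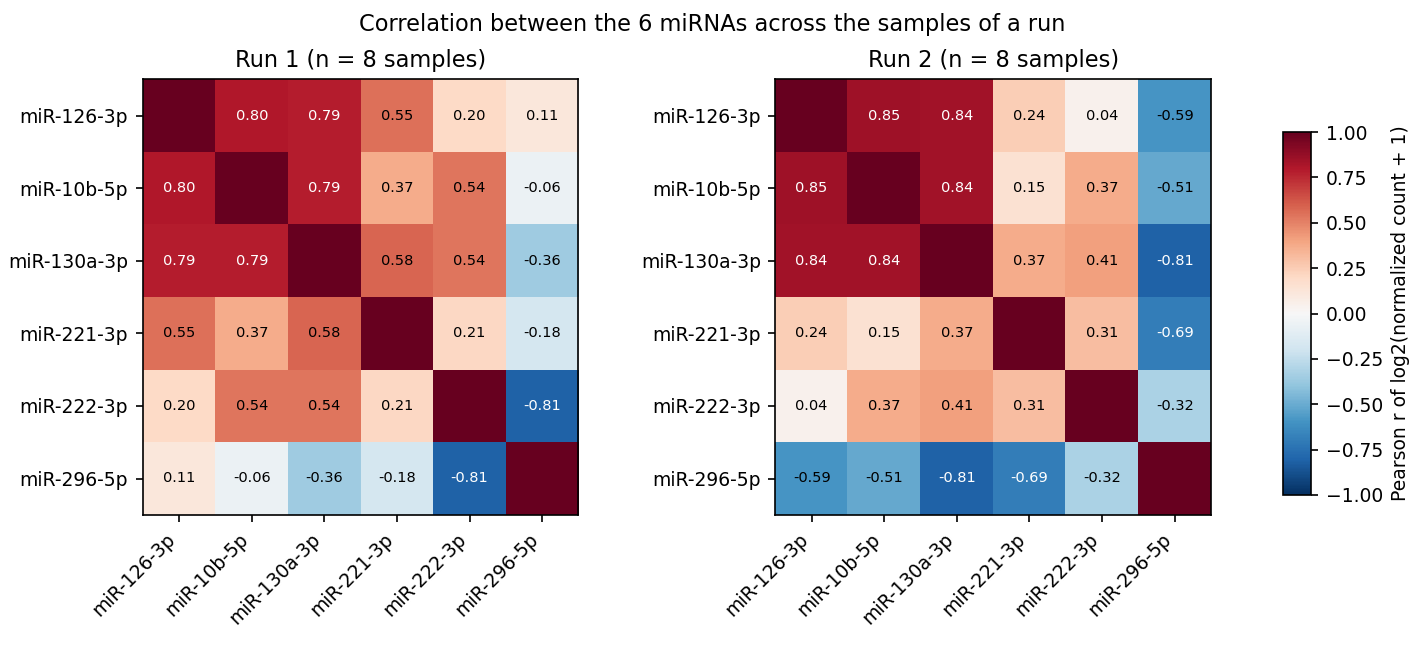
Pearson r of log2(normalized count + 1) for each pair of the 6 miRNAs over the 8 samples of run 1 (left) and the 8 of run 2 (right), red for positive and blue for negative values, with r printed in each square. The block of miR-126-3p, miR-10b-5p and miR-130a-3p holds values of 0.79 to 0.85 in both runs, and miR-221-3p with miR-222-3p 0.21 and 0.31.

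Over all 16 samples, with each sample's median subtracted and values centred within run, the probes most like each of the 6 were named as a description. For miR-126-3p they were miR-15a-5p (Pearson r = 0.927), miR-16-5p (0.896) and miR-301a-3p (0.886). For miR-10b-5p they were miR-28-5p (0.884), miR-30e-3p (0.803) and miR-130a-3p (0.787). For miR-130a-3p they were miR-21-5p (0.907), miR-99a-5p (0.818) and the probe for miR-4454 and miR-7975 (0.809), which have no bovine gene in the table.

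The clustered pair had no probe in common among these. miR-221-3p was most like miR-127-3p (0.787), miR-382-5p (0.78) and miR-487b-3p (0.745), and miR-222-3p was most like miR-25-3p (0.77), miR-505-3p (0.732) and miR-204-5p (0.705). The 3 probes most like miR-296-5p, namely miR-549a (0.776), miR-548q (0.743) and miR-644a (0.73), all lack a bovine gene in the table.

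Further miRNAs described in endothelium and angiogenesis were examined as a list of 25, of which 18 were measured; the other 7 were not analysed here. None of the 18 was called by limma in any comparison of days, and 6 of the 18 had an unadjusted p under 0.05 for day 23 against day 14, beside 43 of all 204 probes (0.490% called). For that pair 9 of the 18 were higher on day 23, and the median log2 difference was -0.03. The brightest of them are members of the miR-23 and miR-27 clusters and miR-503-5p. Day 23 minus day 14 was 0.32 for miR-23a-3p (limma adjusted p = 0.54), 0.59 for miR-23b-3p (0.175), 0.82 for miR-27b-3p (standard error 0.24, adjusted p = 0.0993) and -0.56 for miR-503-5p (0.469). In run 2, 16 of the 18 were called higher than in run 1, with a median log2 difference of 0.94, beside 66.2% of all probes called higher and a median of 0.74 over all probes.

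Markers of other cells of the gland were summed per sample. The 4 measured of 6 blood cell miRNAs summed to 757 to 4969 normalized counts on day 14, 615 to 2121 on day 17, 1455 to 2756 on day 20 and 808 to 1829 on day 23. All 4 had negative day 23 minus day 14 differences, as miR-126-3p had, with -1.04 for miR-451a (limma adjusted p = 0.176), the miRNA of red blood cells, and -1.37 for miR-223-3p (adjusted p = 0.165), a miRNA of myeloid cells. For that pair 0 of the 4 were called, beside 0.490% of all probes. The day 14 values of miR-223-3p were widely spread, at 238 ± 360 (SD, n = 4), against 39.15 ± 5.90 on day 23. The mean of the blood sum was higher on day 23 than on day 14 in run 1 (1084 against 816) and lower in run 2 (1495 against 4305). For the 4 blood miRNAs the day difference in run 2 minus that in run 1 had a median of -1.77, beside -0.32 over all probes. Of the 4, 2 had an unadjusted limma p under 0.05 and 0 were called, beside 39 of 204 and 0% of all probes. The 2 measured of 3 smooth muscle and pericyte miRNAs summed to 2471 to 8634 on day 14 and 4308 to 9075 on day 23. They differed in sign between these days, at 0.50 for miR-145-5p, the brighter (limma adjusted p = 0.228), and -0.50 for miR-143-3p (adjusted p = 0.469). The 2 stromal miRNAs summed to 3525 to 17978 and 4712 to 8728 on these days. The 1 measured of 4 epithelial miRNAs, miR-141-3p, was at 37.1 to 87.3 over all samples. No marker was at 0, and the part of these cells in the values of the 6 miRNAs was not tested.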

How the data were processed

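MicroRNAs were measured with NanoString in 16 corpora lutea. The deposited table holds 204 probes in 16 sample columns of signal that the authors called normalized counts. Per the labels' protocols, total RNA with miRNA was isolated with a commercial kit. The sources used here do not give the panel, the background correction, the normalization or any filter. Low values lay on steps worth 0.665 to 2.91 normalized counts with a shift, so counts were not recovered and no count model was used. All columns were matched to samples by name.

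Values were taken as log2(normalized count + 1), which understates changes of low probes, and were not rescaled. All 204 probes had at least 20 normalized counts in at least 4 samples, the filter used. Linear models of all probes were fitted in R 4.3.3 by limma 3.58.1 (lmFit, eBayes with a variance trend) with terms for the 4 days and for run, leaving 11 residual degrees of freedom. P-values were adjusted over the 204 probes in each test by Benjamini-Hochberg. The limma step was first tested on simulated data. For the ratio and the correlations, exact permutation tests were used.

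The 6 miRNAs, the lists and the tests were chosen with earlier results of these data known. By the rule for names, all 6 were named, with the 3 probes most like each by Pearson r and the brightest of the further list. Alternatives were the pseudocount, the filter, the scaling, background subtraction, each run alone, each sample left out and the replicate number as a block. Samples of the same number deviated together while run was in the deviations (24 of 24 pairs of samples with r over 0.1), but in 9 of 24 once run was removed, so the numbers were not taken to pair the samples.

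Bovine gene names came from the RefSeq gene table of assembly ARS-UCD2.0, which lists 1032 miRNA genes: 155 probes had a gene of the same name, 11 one of the same number, and 38 neither. Coordinates and miRNA sequences were not used here.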

Additional observations from a re-analysis of the deposited data

Results flagged for a closer look

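Among 28 groups of 4 samples (the 6 miRNAs and the ratio of miR-222-3p to miR-221-3p on each day), 4 held 1 sample far from the other 3. The cutoff used gives about 1 in 20 for independent draws from 1 normal population. Each group here mixed the 2 runs and the groups shared samples, so that rate does not apply and 4 of 28 is not read as an excess. In all 4 groups the far sample was replicate 4 of a day, a run 2 sample. miR-126-3p was at 29617.58 normalized counts in day 20 replicate 4, against 8682.77 to 10471.59 in the other 3 samples of that day. miR-10b-5p was at 2055.75 in the same sample, against 915.28 to 1019.86. miR-130a-3p was at 1719.38 in day 17 replicate 4, against 734.33 to 852.17. miR-296-5p was at 145.58 in day 23 replicate 4, against 70.23 to 79.58.

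For 2 of the miRNAs both day 23 samples lay on one side of both day 14 samples in run 1 and on the opposite side in run 2. The share of all probes split in this way was not counted, and each side rests on 2 samples, so these 2 are not read as an excess. For miR-222-3p both day 23 samples were above both day 14 samples in run 1 and below both in run 2, and the run 2 difference minus the run 1 difference was -1.18 (limma adjusted p = 0.197). For miR-296-5p, lower in run 1 and higher in run 2, it was 1.06 (limma adjusted p = 0.322). miR-10b-5p also differed in sign, at 0.21 in run 1 and -0.46 in run 2, but its samples overlapped (difference -0.67, limma adjusted p = 0.482). None of the 3 passed the test, beside 0% of all probes called and 39 of 204 with an unadjusted limma p under 0.05. Both miR-222-3p and miR-296-5p were below the background level of every run 1 sample.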

How the results depend on the processing

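The count of the 6 miRNAs called was 0 as deposited for the 4 days together, the 6 pairs of days and the slope on day, and these counts changed as follows. In run 1 alone as deposited, 1 was called in a pair of days (miR-222-3p, day 20 against day 14). In run 1 alone on the total scale, miR-126-3p was called for day 23 against day 14 (-0.72, limma adjusted p = 0.0184). That fit rests on 2 samples a day, and the share of all probes called in it is not given here. With each sample scaled to the same total 1 was called for the slope, and 1 with quantile normalization, both times miR-126-3p. Between runs 5 were called as deposited. On the total scale 1 was called, miR-296-5p, which was not among those 5. With quantile normalization 1 was called, miR-222-3p. The count was 4 with sample medians subtracted. It was 6 with background subtracted, where miR-222-3p and miR-296-5p were at the floor in 8 samples each. The Pearson correlations passing went from 0 to 2 with sample medians subtracted. Leaving out 1 sample changed none of the limma counts for days, slope and run, and with the replicate block they were also 0 of 6 for the 4 days, the pairs and the slope. The log2 difference of the miR-222-3p to miR-221-3p ratio was 0.56 to 0.97 when 1 sample was left out. Without day 23 replicate 3 the permutation p, with samples exchanged between runs, was 0.0286 (0.0571 with all samples). That is the smallest p the test can give with 1 sample left out.

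Directions of values that did not pass turned in several settings; the cause was not tested. Day 23 minus day 14 for miR-10b-5p was 0.00027 with background subtracted, 0.21 in run 1 alone and -0.33 to 0.052 when 1 sample was left out. For miR-222-3p it was -0.072 on the total scale, -0.36 in run 2 alone and -0.020 to 0.48 when 1 sample was left out, and for miR-296-5p it was -0.17 in run 1 alone. The slope in run 1 alone was 0.020 for miR-10b-5p, 4.4e-05 for miR-130a-3p and -0.025 for miR-296-5p, and in run 2 alone it was -0.015 for miR-222-3p. On the total scale the slope of miR-296-5p was -0.011. With 1 sample left out, the slope of miR-10b-5p was -0.031 to 0.0027 and that of miR-296-5p -0.0044 to 0.036. Run 2 minus run 1 was -0.034 for miR-221-3p on the total scale and -0.17 to 0.061 for miR-296-5p when 1 sample was left out. Background subtraction put miR-222-3p and miR-296-5p at the floor in 8 samples each and miR-221-3p in 1, so no background-subtracted values are given for them. The normalization is unknown, so the scale on which days should be compared is not settled by these data.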
